A study of Mus musculus with 6 samples.

Results

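Cells take up fat in steps. Lipoprotein lipase (Lpl) frees fatty acids from circulating triglyceride, the scavenger receptor Cd36 helps them across the membrane, fatty acid binding proteins (Fabp) carry them inside the cell, and Dgat2 builds them into triglyceride that droplets coated by Plin2 store. In fat cells the CCAAT/enhancer-binding proteins Cebpd and Cebpa act in sequence to switch on such genes, and in the kidney the proximal tubule burns fatty acids as its main fuel. The 10 genes Lpl, Cd36, Fabp1, Fabp3, Fabp4, Fabp5, Plin2, Cebpa, Cebpd and Dgat2 were read here by all probe sets that the array annotation pairs with them. These were 21 of 45037 probe sets on the array, and the 10 genes were among 18193 that had a probe set of their own.

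Juxtaglomerular (JG) cells, the renin-secreting cells of the afferent arteriole, were sorted by yellow fluorescent protein (YFP) from adult C57BL6 mice of the genotype Ren1c YFP. They were compared with renal mesenchymal stromal cells (MSC) of the same strain and genotype, sorted by CD44 and grown to confluence before RNA was taken. Each group had 3 samples, measured on 6 single-channel Affymetrix arrays. The labels do not say whether samples came from separate animals or were pooled, so p-values measure only the spread between these samples. The same growth medium is given for both groups, so whether the JG cells were cultured is not settled, and growth in culture and cell type cannot be told apart.

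Array medians lay between 27.3 and 36.5, and no 2 arrays were identical. Across genes the arrays correlated at 0.971 to 0.975 within MSC and at 0.797 to 0.882 within JG. JG sample 2 stood farthest from MSC (0.675 to 0.689) and JG sample 1 nearest (0.802 to 0.812). Cd44 was lower in JG (138.6 ± 17.3 in JG, 974 ± 81.9 in MSC), whereas the renin gene was not among the probe sets paired with a single gene. Each of 10 measured markers of the proximal tubule passed the test upward in JG, with summed intensities of 28495.5 to 37391.0 in the JG samples and 345.3 to 678.2 in the MSC samples. The number of arrays limits the precision of every value below. Values are linear intensities, given as mean ± SD with n = 3 per group where averaged. Log2 differences are JG minus MSC ± SE of log2(intensity + 16). Adjusted p-values are from limma with Benjamini-Hochberg adjustment, over all 45037 probe sets unless stated. A gene was called when the adjusted p of its brightest probe set was under 0.05. Differences of dim genes are understated on this scale, and where a group lies near or below 16 the size of a difference depends on the added constant.

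Of the 10 genes 6 were called higher in JG, and the fatty acid binding proteins were divided. Lpl, Cd36, Dgat2, Fabp4, Cebpd and Fabp3 were called higher, no gene was called lower by its brightest probe set, and Fabp1, Fabp5, Plin2 and Cebpa were not called. Over all genes 6.65% were called higher and 6.13% lower. The median difference of the 10 genes was 2.00, against 0.07 for all genes. The groups did not overlap for 8 of the 10 genes, 6 with JG above MSC and 2 with JG below, where 20.2% of all genes had JG above and 18.7% had JG below (38.9% together). The count of 6 became 3 without MSC sample 1, and the gene called lower was Fabp5 when JG sample 2 was left out (-1.76, adjusted p = 0.0232).

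**Figure D1:**
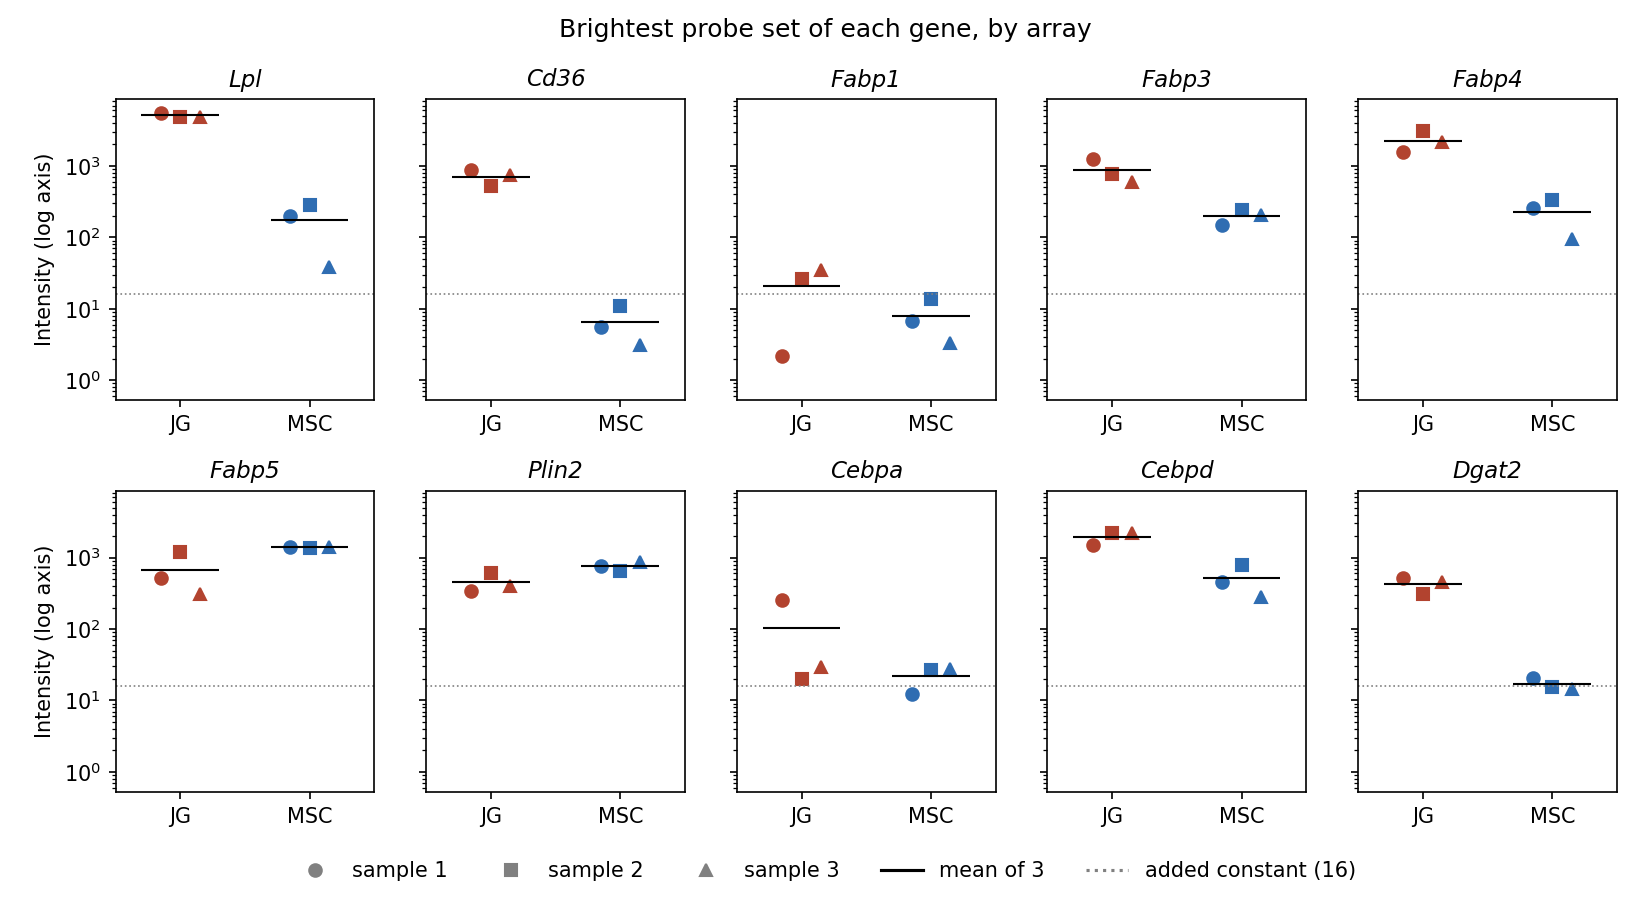
Intensity on a log axis of the brightest probe set of each of the 10 genes in the 3 JG (left, red) and 3 MSC (right, blue) arrays, with black lines at the group means and a dotted line at 16, the constant added before log2. Lpl, Cd36, Fabp3, Fabp4, Cebpd and Dgat2 lie higher in every JG array than in any MSC array, while Fabp5 and Plin2 lie lower.

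Lpl, the enzyme that releases fatty acids from lipoproteins, had the largest difference of the 10 genes. Its brightest probe set (1415904_at) read 5553.09, 4816.49 and 4892.75 in JG samples 1 to 3, against 196.21, 284.57 and 38.87 in MSC samples 1 to 3. The JG arrays lay within 1.15-fold of each other, whereas the MSC arrays spanned 7.32-fold with sample 3 far below the others. The difference was 5.07 ± 0.63 (33.5-fold, adjusted p = 0.0069), and 4.33 (20.2-fold) without MSC sample 3. The second probe set (1431056_a_at) gave the same order of MSC arrays, at 56.88, 74.8 and 10.52, against 2016.6, 1692.14 and 1600.07 in JG (4.99 ± 0.48, adjusted p = 0.00288). Both stayed under 0.05 with any 1 sample left out.

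Cd36, a membrane glycoprotein that binds long-chain fatty acids and oxidised lipoproteins, was read by 3 probe sets. The brightest (1450883_a_at) read 866.99, 519.77 and 736.08 in JG, against 5.59, 10.79 and 3.14 in MSC. Every MSC value of all 3 probe sets lay below 16, near the floor of the array. The difference was 4.99 ± 0.28 (adjusted p = 0.0004), and its size depends on the added constant, at 3.43 with 64 and 6.66 with 1 in place of 16. A dimmer probe set (1450884_at) read 100.4, 96.06 and 129.62 in JG and 3.99, 7.11 and 8.13 in MSC (2.47 ± 0.22, adjusted p = 0.00213). The third (1423166_at) read 154.65 and 173.03 in JG samples 1 and 3 but 5.93 in JG sample 2, against at most 4.26 in MSC. It was not called (2.27 ± 0.84, adjusted p = 0.148) and had an adjusted p of 0.00228 without JG sample 2.

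The fatty acid binding proteins divided by family member. Fabp4, the adipocyte form that is also made by capillary endothelium and macrophages, was the member with the largest difference. Its brightest probe set (1451263_a_at) read 1574.74, 3033.02 and 2156.07 in JG, against 253.42, 335.51 and 95.04 in MSC. JG sample 2 was highest and MSC sample 3 lowest, and the lowest JG array stood well above the highest MSC array. The difference was 3.32 ± 0.50 (10-fold, adjusted p = 0.0126), and without MSC sample 1 it was 3.47 (adjusted p = 0.0509). Of the other 3 probe sets, 1417023_a_at (3.13 ± 0.47, adjusted p = 0.0131) and the dim 1425809_at (1.49 ± 0.25, adjusted p = 0.019) were called higher. The call of 1417023_a_at was lost without MSC sample 1 (adjusted p = 0.0553), and that of 1425809_at without any 1 of the MSC samples (adjusted p = 0.0828, 0.0865 and 0.0923 without MSC samples 1, 2 and 3). The remaining probe set, 1424155_at, lay between 4.61 and 17.18 in JG and between 1.52 and 6.17 in MSC and was not called.

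Fabp3, the heart and muscle form, was also higher in JG. Its brightest probe set (1416023_at) read 1236.3, 781.5 and 589.58 in JG, against 147.54, 241.52 and 208.3 in MSC. The groups did not overlap, and JG sample 1 was the highest of the 6 arrays. The difference was 2.00 ± 0.35 (4-fold, adjusted p = 0.0201). Leaving out MSC sample 1, 2 or 3 gave adjusted p = 0.0833, 0.0688 and 0.0875. A second, dimmer probe set (1444844_at) read 88.76, 135.11 and 78.54 in JG and 42.23, 44.25 and 50.36 in MSC. Its groups were apart too, but it was not called (0.89 ± 0.25, adjusted p = 0.0818).

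Fabp5, the epidermal form, ran the other way. The brightest probe set (1416021_a_at) read 511.02, 1201.88 and 313.91 in JG, against 1405.46, 1375.18 and 1420.5 in MSC. All JG arrays lay below all MSC arrays, but JG sample 2 came close to them, and the probe set was not called (-1.25 ± 0.48, adjusted p = 0.161). Without JG sample 2 the difference was -1.76 (adjusted p = 0.0232). The second probe set (1416022_at) read 59.18, 54.77 and 31.98 in JG, against 343.8, 452.27 and 527.11 in MSC. It was called lower in JG (-2.83 ± 0.29, adjusted p = 0.00332) and stayed under 0.05 with any 1 sample left out. On this probe set JG sample 2 lay with the other JG arrays. The mean of both probe sets differed by -2.04 ± 0.33 (adjusted p = 0.00922, in a fit adjusted over 18193 genes).

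Fabp1, the liver form, was dim in both groups. Its brightest probe set (1448764_a_at) read 2.15, 26.3 and 34.85 in JG and 6.68, 13.57 and 3.34 in MSC, and the other (1417556_at) did not exceed 7.44 on any array. The groups overlapped on both, and neither was called (0.53 ± 0.44 with adjusted p = 0.485, and 0.15 ± 0.23 with adjusted p = 0.723). The table holds no detection calls, so these are low intensities and not a statement of absence.

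Promoter sequences from RefSeq were matched for Cd36, Cebpa, Fabp1, Fabp3 and Plin2, 5 of the 10 genes (GRCm38.p6). Those of Cd36 and Fabp1 are shown because the first gene was far higher in JG and the second was dim in both groups. Each is the 250 bases before the annotated start, read 5′ to 3′ on the gene's strand, with capitals marking matches to the motifs searched on both strands.
Cd36, chr5:17835897-17836146, minus strand: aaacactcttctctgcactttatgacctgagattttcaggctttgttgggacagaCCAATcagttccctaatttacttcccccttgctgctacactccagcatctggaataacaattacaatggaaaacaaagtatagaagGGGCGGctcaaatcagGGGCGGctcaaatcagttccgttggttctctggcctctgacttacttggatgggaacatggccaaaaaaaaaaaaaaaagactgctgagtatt
Fabp1, chr6:71199629-71199878, plus strand: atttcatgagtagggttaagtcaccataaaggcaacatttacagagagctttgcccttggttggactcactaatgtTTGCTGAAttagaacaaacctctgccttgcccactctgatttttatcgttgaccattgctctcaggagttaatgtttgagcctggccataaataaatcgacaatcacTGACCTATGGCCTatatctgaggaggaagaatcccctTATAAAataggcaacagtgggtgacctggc
The Fabp1 window held a direct repeat of the nuclear receptor half-site with 1 base between (AGGNCA repeated in the same orientation, on the minus strand, 67 to 55 bases before the start), the kind of element that peroxisome proliferator-activated receptors bind. Only 0.338% of 32851 promoters held it. It also held a core of the C/EBP motif (TTGCNNAA, 9.56% of promoters) and a TATA box (TATAAA, 12.4%), 30 to 25 bases before the start. The Cd36 window held none of these 3 motifs. It held a CCAAT box (CCAAT, 33.8% of promoters) and a pair of GC boxes (GGGCGG, 32.7%). The Cebpa window held a TATA box, the Plin2 window a CCAAT box and the Fabp3 window none of the 5 motifs. No motif match overlapped another, and a match describes the letters only.

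Dgat2, which catalyses the last step of triglyceride synthesis, was higher in JG on the brighter of its 2 probe sets. That probe set (1422678_at) read 525.59, 305.49 and 459.53 in JG, against 20.53, 15.56 and 14.35 in MSC. The MSC values lay close to 16. The difference was 3.74 ± 0.27 (adjusted p = 0.00101) and stayed called with any 1 sample left out, but its size was 2.59 with 64 and 4.58 with 1 as the added constant. The other (1422677_at) read 144.83, 12.29 and 49.97 in JG and 16.84, 84.86 and 20.56 in MSC. Its groups overlapped and it was not called (0.44 ± 0.74, adjusted p = 0.746), and leaving out JG sample 1 gave -0.20 while leaving out JG sample 2 gave 1.06.

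Plin2, the coat protein found on lipid droplets of most cells, had a single probe set (1448318_at). It read 337.14, 604.55 and 404.21 in JG, against 766.35, 650.13 and 872.36 in MSC. JG arrays all lay below MSC arrays, with JG sample 2 just under MSC sample 2. The probe set was not called (-0.78 ± 0.29, adjusted p = 0.148). Its difference ran opposite to those of Lpl, Cd36 and Dgat2.

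Of the C/EBP factors, Cebpd, which acts early in fat cell differentiation and in inflammatory responses, was higher in JG. Its brightest probe set (1423233_at) read 1478.46, 2181.5 and 2239.36 in JG, against 460.85, 794.83 and 280.26 in MSC (2.00 ± 0.42, adjusted p = 0.0345). The groups did not overlap, but the call was lost without JG sample 2 (adjusted p = 0.0799), JG sample 3 (0.0975), MSC sample 1 (0.122) or MSC sample 3 (0.106). The second probe set (1456605_at) read 869.21, 109.4 and 712.66 in JG and 227.86, 487.56 and 161.78 in MSC. JG sample 2 was the lowest of the 6 arrays there, and the probe set was not called (0.63 ± 0.82, adjusted p = 0.669, or 1.52 without JG sample 2). The mean of both gave 1.32 ± 0.49 (adjusted p = 0.116, in a fit adjusted over 18193 genes).

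Cebpa, which maintains the mature fat cell and liver cell states, was read by 1 probe set (1418982_at). It stood at 258.36 in JG sample 1 but at 19.68 and 29.33 in JG samples 2 and 3, against 12.13, 27.06 and 27.56 in MSC. A single JG array was bright, the other 2 lay among or near the MSC arrays, and the difference of 1.02 ± 0.79 was not called (adjusted p = 0.454). Without JG sample 1 the difference was 0.10.

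**Figure D2:**
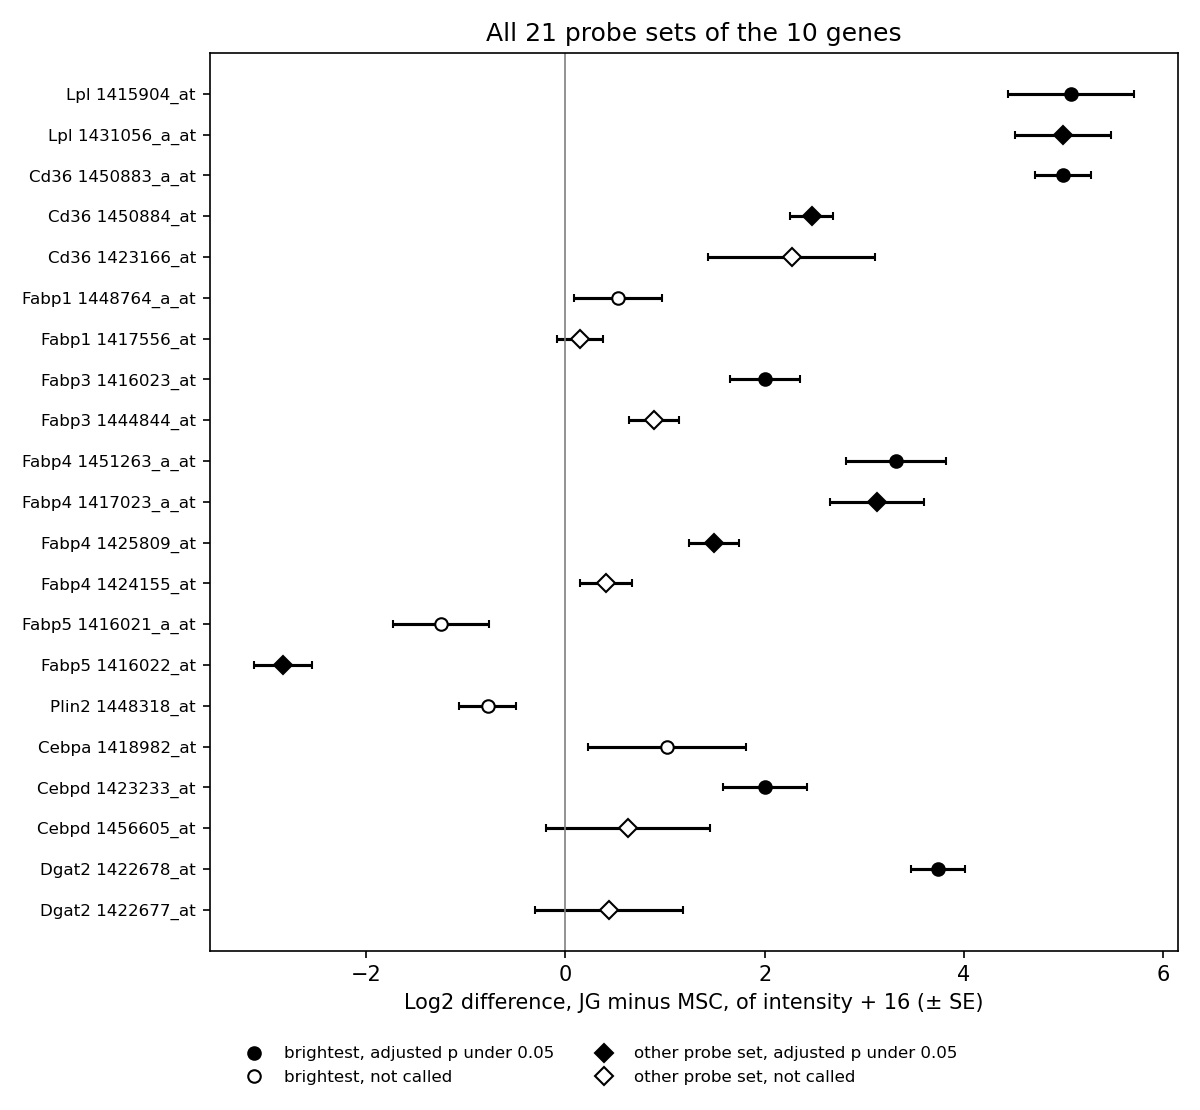
Log2 difference (JG minus MSC, of intensity + 16) with its SE for all 21 probe sets, circles for the brightest of each gene and diamonds for the others, filled where the adjusted p was under 0.05. Both Lpl probe sets lie near 5, both Fabp5 probe sets below 0, and the second probe sets of Cebpd and Dgat2 near 0.

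Counted over probe sets, 10 of 21 were called higher in JG, 1 lower and 10 not, where 9.8% of all probe sets were called, 4.23% higher and 5.57% lower. The groups were apart for 15 of the 21, 12 with JG above and 3 below, where 34.2% of all probe sets were apart, 16.1% with JG above and 18.1% below. The 10 called higher became 5 without MSC sample 1. Among the 8 genes with more than 1 probe set, all were called in Lpl, and none in Fabp1. In Cd36, Fabp3, Fabp4, Fabp5, Cebpd and Dgat2 some were called and some were not. No 2 probe sets of a gene were called in opposite directions.

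The arrays of a group were ordered differently by different genes. JG sample 1 was brightest for Lpl, Cd36, Dgat2, Fabp3 and Cebpa at their brightest probe sets, JG sample 2 for Fabp4, Fabp5 and Plin2, and JG sample 3 for Cebpd and Fabp1. On 2 member probe sets, of Cd36 and Cebpd, JG sample 2 lay more than 4-fold below both other JG arrays, out of 13 on which both others exceeded 100. This was so for 12.2% of all probe sets of that brightness, against 10% for JG sample 1 and 1.35% for JG sample 3. In MSC, 11 of the 21 probe sets, from Lpl, Cd36, Fabp1, Fabp4 and Cebpd, were ordered sample 2 above 1 above 3, where 13.3% of all probe sets had that order. Probe sets of 1 gene share a target, and this order was looked for after the values were seen.

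**Figure D3:**
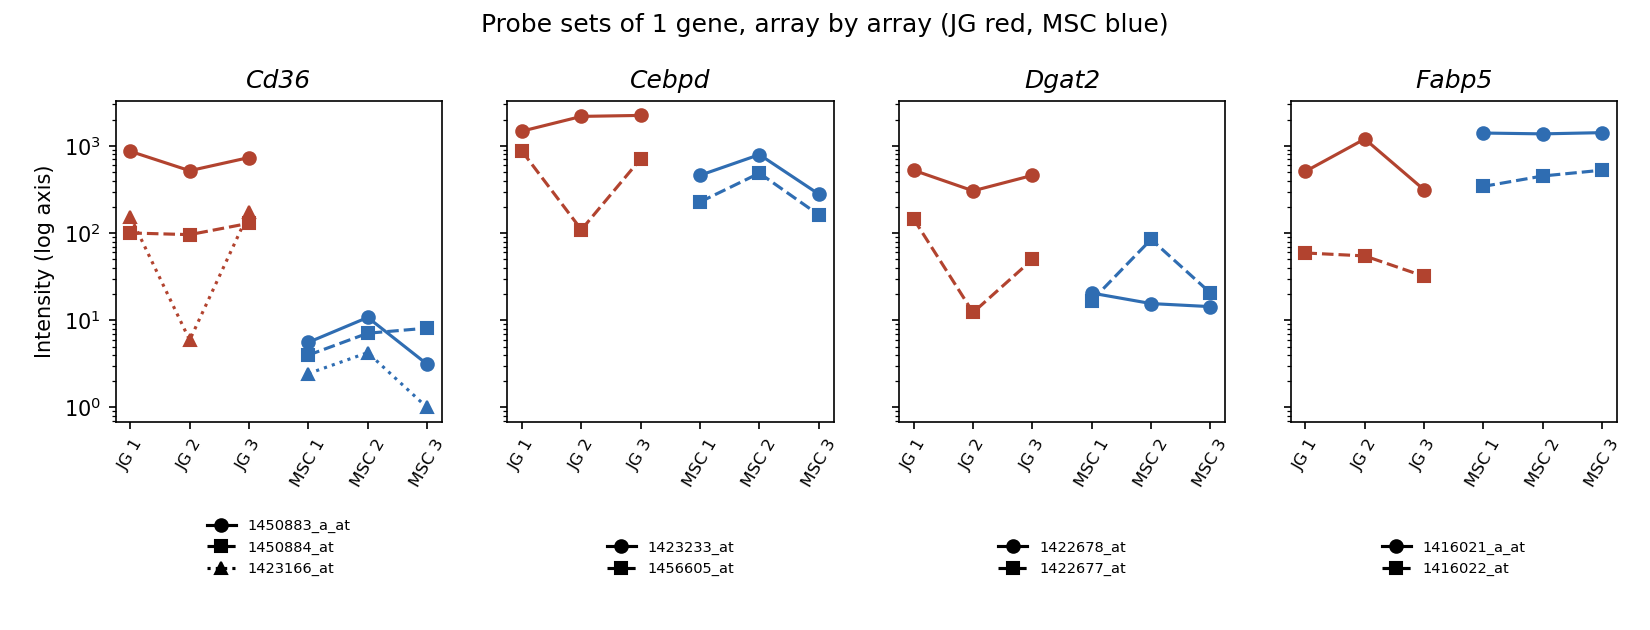
Intensity on a log axis in each JG (red) and MSC (blue) array for every probe set of Cd36, Cebpd, Dgat2 and Fabp5. The third Cd36 probe set and the second probe sets of Cebpd and Dgat2 drop in JG sample 2 while the brightest ones do not drop by as much, and the brightest Fabp5 probe set peaks in JG sample 2.

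Related genes outside the 10 were described from 5 lists. Of 16 measured genes of fatty acid transport and activation, 4 were called higher in JG and none lower, with a median of 0.68, against 0.07 for all genes, of which 6.65% were called higher and 6.13% lower. Slc27a2, which imports and activates very long chain fatty acids, read 5162.41, 4810.35 and 5312.94 in JG, against 7.41, 5.95 and 5.99 in MSC (7.83 ± 0.19, adjusted p = 9.31e-05). The others were Acsm2 (7.16), Acsm1 (4.94) and Acsm3 (2.46), which activate medium-chain fatty acids. All 4 stayed called with any 1 sample left out.

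Among 10 other intracellular lipid-binding protein genes 1 was called, Fabp7, the brain form, and the list median was 0.01. A share of 1 in 10 is near the 6.65% of all genes called higher. Fabp7 read 119.12, 44.59 and 91.16 in JG, against 11.35, 11.45 and 2.74 in MSC (1.99 ± 0.36, adjusted p = 0.0241). JG arrays were all above MSC arrays. The call was lost without JG sample 3 or any 1 of the MSC samples (adjusted p = 0.0744 to 0.109).

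Of 18 genes for partners of Lpl and for lipoprotein receptors, 3 were called higher in JG and none lower, with a median of 0.41. Over all genes the median was 0.07, with 6.65% called higher and 6.13% lower. The endocytic receptors of the proximal tubule brush border, Lrp2 (6.70) and Cubn (4.85), led the list and remained called whichever sample was left out. Lrp2 had 3502.7 ± 302.4 in JG and 19.4 ± 13.8 in MSC. Apoc3, an apolipoprotein that inhibits Lpl, was dimmer (79.2 ± 34.1 in JG, 11.8 ± 5.74 in MSC; 1.74 ± 0.32, adjusted p = 0.0249). Its call was lost without MSC sample 1, 2 or 3 (adjusted p = 0.0983, 0.0746 and 0.114). Gpihbp1, the endothelial protein that holds Lpl on the capillary wall, was dim in both groups at 13.57 to 25.15 in JG and 8.26 to 16.93 in MSC (0.27 ± 0.25, adjusted p = 0.529).

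Of 27 genes of triglyceride synthesis and lipid droplets, 7 were called higher in JG and 1 lower, with a median of 0.68. Across all genes 6.65% were called higher and 6.13% lower, with a median of 0.07. Cideb, a droplet protein of liver cells, had 526.4 ± 131.5 in JG and 18.7 ± 4.94 in MSC (3.95 ± 0.27, adjusted p = 0.000807). Gpam, the mitochondrial enzyme of the first acylation step, had 2806.5 ± 629 in JG and 519 ± 199 in MSC (2.44 ± 0.34, adjusted p = 0.0103). The monoacylglycerol acyltransferases Mogat1 (3.54) and Mogat2 (2.89), the lipase inhibitor G0s2 (1.85), the phosphatidate phosphatase Lpin1 (1.62) and the acyltransferase Gpat4 (1.48) were the others called higher. Hilpda, a hypoxia-induced lipase inhibitor on droplets, was called lower at 6.07, 8.54 and 5.67 in JG, against 29.2, 71.59 and 85.33 in MSC (-1.70 ± 0.35, adjusted p = 0.0332). Pnpla2, the main triglyceride lipase of droplets, read 484.47 to 627.37 in JG and 138.97 to 298.28 in MSC without overlap, but missed the threshold (1.30 ± 0.32, adjusted p = 0.0563). Cideb, Mogat1 and G0s2 stayed under 0.05 whichever sample was dropped. The 7 became 3 without MSC sample 1 and 4 without MSC sample 3, where Gpam missed the threshold without MSC sample 1 (adjusted p = 0.0545), Lpin1 without MSC sample 1 or 3 (0.07 and 0.0799), Gpat4 without JG sample 2 or any 1 MSC sample (0.0605 to 0.131) and Mogat2 without any 1 sample but JG sample 1 (0.0827 to 0.139). Hilpda lost its call without JG sample 2 or 3 or MSC sample 2 or 3 (adjusted p = 0.0632 to 0.132).

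The 20 fat cell transcription factors had a median of -0.02, and 6.65% of all genes were called higher and 6.13% lower. Among the 20 factors 4 were called higher in JG and none lower. They were the coactivator Ppargc1a (664.1 ± 333.9 in JG, 5.70 ± 5.23 in MSC), the fatty acid receptor Ppara (582 ± 494.9 in JG, 14.2 ± 3.75 in MSC), Klf15 (2.95) and the oxysterol receptor Nr1h3 (2.22). Ppara read 1146.95 in JG sample 1 and 375.92 and 223.89 in the others, and its adjusted p of 0.0113 became 0.0544, 0.0574 and 0.0643 without MSC samples 1, 2 and 3. Ppargc1a, Klf15 and Nr1h3 remained called in every fit with 1 sample left out. Groups stood apart with JG above for 7 of the 20 and with JG below for 4, where 20.2% and 18.7% of all genes did. Those below were Cebpg (-2.90), Egr2 (-1.78), Ddit3 (-1.56) and Klf5 (-0.53), none of them called. Pparg, the central regulator of fat cell formation, read 38.42, 103.18 and 186.02 in JG and 83.77, 40.02 and 161.02 in MSC. These groups overlapped widely (0.14 ± 0.61, adjusted p = 0.911). Cebpb, the partner of Cebpd in early differentiation, also overlapped (-0.27 ± 0.45, adjusted p = 0.739).

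**Figure D4:**
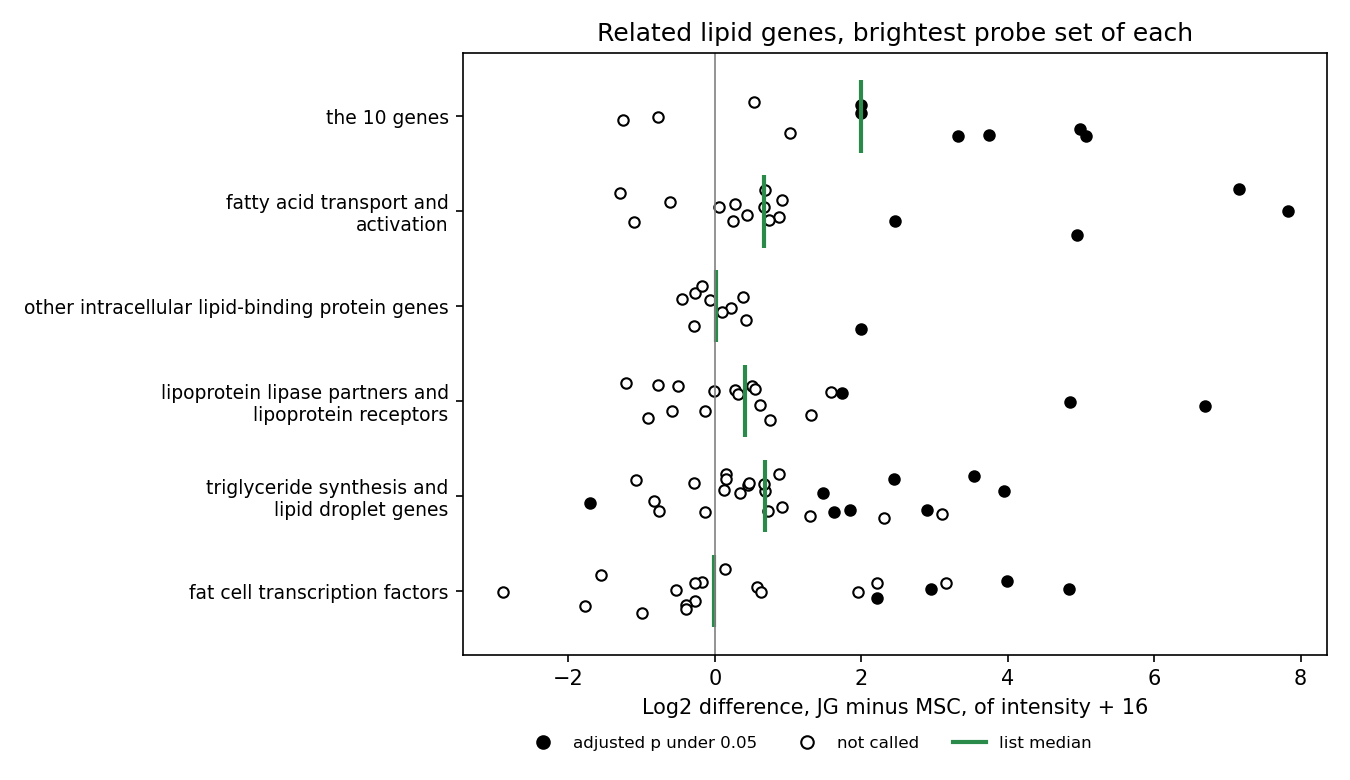
Log2 difference (JG minus MSC, of intensity + 16) of the 10 genes and of the 5 lists of related lipid genes, 1 point per gene at its brightest probe set, filled where the adjusted p was under 0.05, with green bars at the list medians. Hilpda is the only filled point below 0.

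Some but not all markers of other cells that make these proteins were also higher in JG, and their part in the results was not tested. In bulk RNA, fewer cells of a type and less RNA per cell cannot be told apart. The proximal tubule markers, led by Kap, Spink1 and Slc34a1, were called in 10 of 10. Of all genes, 6.65% were called higher and 20.2% stood apart with JG above. Endothelial markers were called higher in 4 of 12 and stood apart upward in 10, with sums of 1204.7, 1578.7 and 1514.4 in JG samples 1 to 3 and 197.0 to 220.4 in MSC. Tek led them with 381.1 ± 202.9 in JG and 3.93 ± 1.93 in MSC. Pecam1 also stood apart upward but was dim, at 8.86, 7.02 and 31.33 in JG and 2.62, 4.23 and 2.18 in MSC (0.66, not called). Macrophage markers were called higher in 3 of 12 (Laptm5, C1qb and Ptprc) and stood apart upward in 5, with sums of 1693.3, 3195.4 and 4297.1 in JG and 160.1 to 572.1 in MSC. Csf1r, the macrophage growth factor receptor, had 893 ± 922.8 in JG and 79.1 ± 44.5 in MSC and missed the threshold (2.88 ± 0.73, adjusted p = 0.0623). Laptm5, C1qb and Csf1r made up most of the macrophage sums in JG, and Laptm5 and C1qb were read by probe sets of suffix x. C1qa (20.13 ± 14.72 in JG, 10.35 ± 10.78 in MSC) and C1qc (44.75 ± 44.24 in JG, 25.87 ± 25.28 in MSC) overlapped and were not called. Adgre1 (28.25 ± 11.55 in JG, 24.99 ± 29 in MSC) and Cd68 (18.87 ± 5.998 in JG, 24.26 ± 10.28 in MSC) were dim and overlapped.

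Fat cell markers gave sums of 3306.4, 869.3 and 1490.3 in JG and 116.3 to 168.1 in MSC, and 1 of 7 was called while 3 stood apart with JG above. The called gene was Pck1, also a gluconeogenic enzyme of the proximal tubule, with 1626.9 ± 1112.9 in JG and 1.25 ± 0.241 in MSC. Pck1 read 2866.46, 713.69 and 1300.64 in JG samples 1 to 3 and made up most of the fat cell sums there. Slc2a4, the insulin-responsive glucose transporter, read 362.62, 68.43 and 75.51 in JG, against 11.03, 24.31 and 20.07 in MSC. It missed the threshold (2.07 ± 0.61, adjusted p = 0.0893). Thrsp, a lipogenic gene, also stood apart at a low level, with 24.8 ± 11.3 in JG and 8.19 ± 1.36 in MSC (0.72 ± 0.26, adjusted p = 0.143). Genes of fat cell hormones were dim in JG, with Adipoq at 10.32, 3.11 and 25.15, Lep at 5.05, 30.48 and 1.0 and Retn at 24.94, 18.42 and 40.15. Retn was brighter in MSC (27.8 ± 11.2 in JG, 81.7 ± 23.5 in MSC) but was not called. Of 6 measured JG and mural cell markers 3 were called higher (Rgs5, Myh11 and Sparcl1), where 6.65% of all genes were. Gja4 stood apart with JG below, at a low level (9.02 ± 5.74 in JG, 21.2 ± 0.505 in MSC), and was not called. Cspg4 (0.21) and Mcam (-0.26) overlapped, and Ren1 and Akr1b7 had no probe set of their own. Of 7 MSC markers Thy1 and Nt5e were called higher in JG and Cd44, by which the MSC were sorted, and Itgb1 lower. The list median was 1.21, and 3 of the 7 stood apart with JG above and 3 with JG below.

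**Figure D5:**
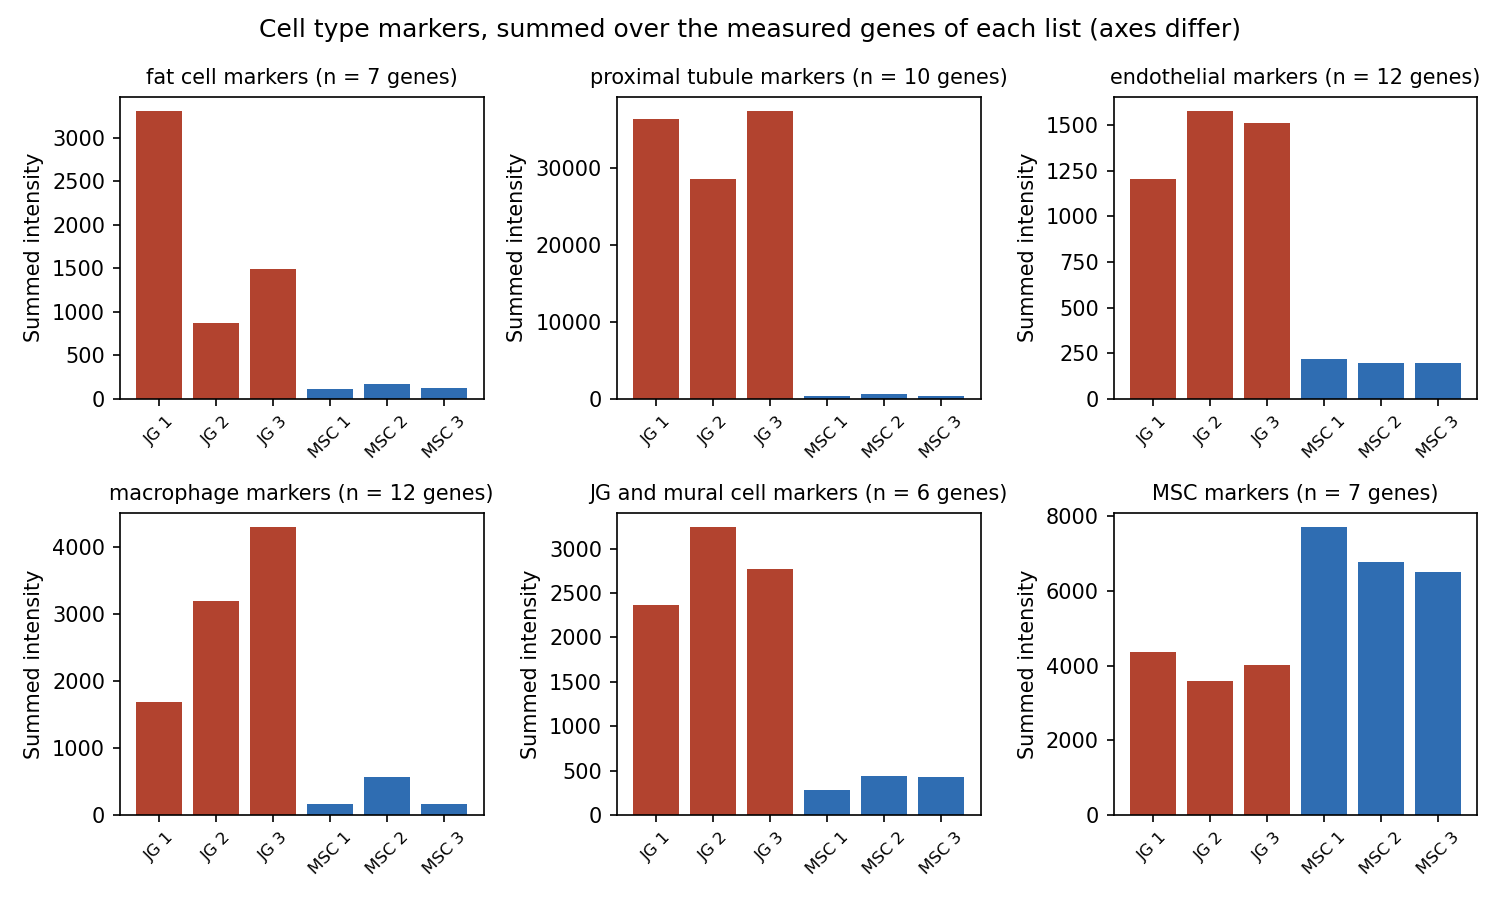
Summed intensity, on a linear axis from 0 that differs between panels, of 6 lists of cell type markers in each JG (red) and MSC (blue) array. The fat cell, proximal tubule, endothelial, macrophage and mural sums are higher in every JG array than in any MSC array, and the MSC marker sum is lower. Itgb1 alone is most of the MSC marker sum in each MSC array. Of the 7 MSC markers 3 stand apart with JG above and 3 with JG below. Most of the fat cell sum in each JG array is Pck1 alone.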

How the data were processed

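Biotin-labelled cRNA from 100 ng of total RNA was hybridised, per the labels' protocols. The values the authors deposited are linear intensities, 1 for each probe set on each array. Their probe summary, background correction and scaling are not given in the sources used. Array medians of the deposited values differ.

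The platform annotation names a single gene for 34945 of the 45037 probe sets, several for 932 and none for 9160. A gene was represented by its brightest probe set (mean over 6 arrays). Values were tested as log2(intensity + 16) without further normalization or filter, by lmFit followed by eBayes (limma 3.58.1, R 4.3.3), and called at 0.05. The fit was also run on simulated data in which both groups had the same spread. That run does not cover the unequal spreads here, with a median SD over all genes of 0.55 in JG and 0.26 in MSC (log2 scale). Figures used matplotlib 3.10.9.

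Text names all 10 genes, up to 4 called genes per direction of each list, and up to 3 markers per cell type by JG mean plus dim defining ones. G0s2, Lpin1, Gpat4, Gpihbp1, Pnpla2, Pparg, Cebpb and the markers Pecam1, Ptprc, Nt5e, Cd44, Thrsp, Adipoq and Lep were otherwise named after their values were seen. So were the macrophage markers Adgre1, Cd68, C1qa and C1qc and the JG and mural cell markers Gja4, Cspg4 and Mcam. The transcription factors Cebpg, Egr2, Ddit3 and Klf5 were also named after their values were seen. The members and lists were chosen with earlier results of these data known.

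Alternatives were quantile normalization, median centring, leaving out dim probe sets, pseudocounts of 1 and 64, 1 probe set per gene, leaving out probe sets of suffix s or x, averaging all probe sets per gene, an intensity trend with robust estimation, the sample number as a block and each sample left out.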

Additional observations from a re-analysis of the deposited data

How the results depend on the processing

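Every called one of the 10 genes kept its direction in all alternatives run, and Lpl, Cd36 and Dgat2 kept their call in all 16. Leaving out 1 sample gave 3 to 6 of the 10 genes higher in JG and 0 to 1 lower, and 5 to 10 probe sets higher and 1 to 2 lower. For the related lists such ranges were 4 to 4 higher and 0 to 1 lower (transport and activation), 0 to 1 higher (other binding proteins), 2 to 4 higher and 0 to 2 lower (Lpl partners and receptors), 3 to 9 higher and 0 to 2 lower (triglyceride and droplets) and 3 to 6 higher and 0 to 1 lower (transcription factors). Called probe sets of the whole table, 4413 as reported, ranged from 1449 to 10177, with 10177 without JG sample 1. Fewer samples also leave fewer residual degrees of freedom.

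The labels state no pairing of the groups by sample number. Deviations from the group means correlated at -0.199, -0.008 and -0.011 between equal numbers. With 3 arrays per group of unlike cells, these values cannot show whether equal numbers were paired. With the replicate block, 4 of the 10 genes were higher (Fabp3 at adjusted p = 0.0848 and Cebpd at 0.0834), other binding proteins had 0 higher, triglyceride and droplet genes 4 higher and 0 lower, and 1603 probe sets were called in all. Triglyceride and droplet genes had 0 lower with dim probe sets left out or a pseudocount of 64. Transport and activation had 1 lower with a pseudocount of 1 or with trend and robust estimation. Transcription factors had 1 lower with median centring, dim probe sets left out, 1 probe set per gene, or trend and robust estimation. Cebpd was not called with a pseudocount of 1 (adjusted p = 0.0597). Fits that were not called reversed for Cebpb without JG sample 1 (0.22, range -0.53 to 0.22 over the samples left out) and for Pparg without JG sample 3 (-0.31) or MSC sample 2 (-0.28, range -0.31 to 0.64), and for the second Dgat2 probe set without JG sample 1 (-0.20). Where not stated, the cause was not tested. Of 516 values for single genes under an alternative, 459 kept side and direction. Low intensities near the floor limit Fabp1 and the MSC values of Cd36.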
